A study of Mus musculus with 2 samples.

Results

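This section describes 30 HOX genes in the mouse yolk sac. They are the rows with these symbols in the gene tables of both libraries, 30 of the 39 protein-coding HOX rows and of 33456 genes in all: 10 of cluster A (Hoxa2 to Hoxa7, Hoxa9 to Hoxa11, Hoxa13), 9 of cluster B (Hoxb1 to Hoxb9), 6 of cluster C (Hoxc4 to Hoxc6, Hoxc8 to Hoxc10) and 5 of cluster D (Hoxd1, Hoxd3, Hoxd4, Hoxd8, Hoxd9). They were picked by symbol, with earlier results of these data known.

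The study compared 1 wild-type library (WT; strain B6, genotype wt) with 1 library of the same strain that carries a conditional knockout of Baf155 (CKO). Baf155 is the name of the protein encoded by Smarcc1, a core subunit of the BAF chromatin remodelling complex. Each library pooled yolk sacs of as many E9.5 as E10.5 embryos, so stage and embryo are mixed within a library. The tissue was digested with collagenase, frozen and thawed, and live Ter119-negative cells (Ter119 marks maturing red cells) were sorted and run on a droplet system that reads the 5′ end of each transcript. The sample labels also speak of nuclei, whereas the protocol describes whole live cells. The sources used here do not give the Cre driver, the deleted exon or the number of embryos. With 1 library per genotype there is no replicate and no test between genotypes. Every interval below is a 95% interval for counting error only, so embryo, stage, handling and genotype cannot be told apart.

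HOX genes encode homeodomain transcription factors that lie in 4 clusters, each a row of paralogue groups numbered from the 3′ to the 5′ end. In the embryo the low-numbered genes are switched on earlier and further forward, and the high-numbered, 5′ genes later and further back, a rule called collinearity. In the mouse cluster A lies on chromosome 6, B on 11, C on 15 and D on 2. HOX proteins bind DNA with PBX and MEIS cofactors. CDX factors and trithorax proteins are known activators of the clusters, and Polycomb proteins are known repressors. In blood, Hoxa9 and Hoxb4 are known from work on progenitor growth, and yolk sac mesenchyme arises from extraembryonic mesoderm that leaves the posterior primitive streak.

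The DNA just upstream of 3 members is shown because their levels carry the blood results below: Hoxb4, the member with the most unique molecular identifiers (UMIs, one per captured transcript) in the progenitor gate of both libraries together, and Hoxa9 and Hoxb8, which differed most there between the libraries. Each is the 250 bases before the RefSeq start of the gene on GRCm38.p6, 5′ to 3′ on the gene's strand. Capitals mark matches, on either strand, to a PBX-HOX motif (TGATNNAT) or a CDX motif (TTTATG).
Hoxb4, chr11:96318017-96318266, plus strand: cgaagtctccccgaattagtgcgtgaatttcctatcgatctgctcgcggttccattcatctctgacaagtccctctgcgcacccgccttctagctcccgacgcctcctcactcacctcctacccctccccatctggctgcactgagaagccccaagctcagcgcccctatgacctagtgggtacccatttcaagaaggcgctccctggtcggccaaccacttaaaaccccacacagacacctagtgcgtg
Hoxb8, chr11:96281655-96281904, plus strand: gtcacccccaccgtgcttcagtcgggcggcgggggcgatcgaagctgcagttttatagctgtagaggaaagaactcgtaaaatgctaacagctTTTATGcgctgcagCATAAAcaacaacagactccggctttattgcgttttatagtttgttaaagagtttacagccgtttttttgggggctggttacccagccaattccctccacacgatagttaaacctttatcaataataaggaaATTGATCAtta
Hoxa9, chr6:52227371-52227620, minus strand: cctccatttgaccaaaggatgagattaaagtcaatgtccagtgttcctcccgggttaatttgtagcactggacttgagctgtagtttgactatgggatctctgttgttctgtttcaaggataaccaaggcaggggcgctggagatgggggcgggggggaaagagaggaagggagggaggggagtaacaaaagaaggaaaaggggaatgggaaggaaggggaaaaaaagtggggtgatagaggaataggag
The Hoxb8 window held 2 CDX matches and 1 PBX-HOX match, none overlapping, and the Hoxb4 and Hoxa9 windows held neither motif. Among 18 members with a window (19 windows), Hoxa2, Hoxb1 and Hoxb8 held the PBX-HOX motif, which 7.68% of 32851 windows of the same length held. The CDX motif was in the windows of Hoxa7, Hoxb8, Hoxd3 and Hoxd4, against 10.8% of all windows. These are letter matches and were not tied to binding.

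Cells were assigned by marker gates that use no HOX gene. The WT library kept 784 cells and the CKO library 841, with medians of 28187 and 28268 UMIs. The stromal gate held 249 and 285 cells, the endothelial gate 62 and 66, the blood progenitor gate 179 and 132, the erythroid gate 172 and 255, the megakaryocyte gate 14 and 78, the macrophage gate 42 and 12 and the visceral endoderm gate 31 and 4 (WT first, here and throughout). Stroma was split into a mesothelial gate (60 and 61 cells), a contractile gate (84 and 43), a gate on Wnt2, Nkain4 and Prss35 (4 and 50) and the rest (101 and 131). Smarcc1 stood at 98.9 and 31.3 CPM (UMI counts scaled to the gate's total) in stroma, 102 and 11.6 in endothelium, 125 and 36.7 in progenitors and 58.2 and 7.56 in erythroid cells. Which of its reads come from outside the deleted part cannot be told.

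Summed over the 30 members, HOX RNA was higher in stroma than in endothelium, through Hoxc8, and scarce in blood. The 30 members summed to 638 CPM (618 to 659) in WT stroma and 396 CPM (381 to 411) in CKO stroma. In endothelium they summed to 258 CPM (229 to 288) and 197 CPM (178 to 217). Endothelium had no Hoxc8 UMI. With Hoxc8 left out, stroma stood at 243 CPM (231 to 256) and 194 CPM (184 to 205), near the endothelial sums. Progenitors held 25.4 CPM (21.9 to 29.4) and 24.2 CPM (20.3 to 28.7). Erythroid cells held 0.789 CPM (0.256 to 1.84) and 7.35 CPM (5.73 to 9.29). In the CKO erythroid gate, 1 cell that also showed at least 6 stromal markers carried 52 of the 70 HOX UMIs, and without it the level was 1.91 CPM (1.13 to 3.02). Of the 30 members, 27 had a UMI in WT stroma and 28 in CKO stroma, 18 and 13 in endothelium, and 14 and 11 in progenitors. Hoxa6 had no UMI in any kept cell of either library.

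The cluster with most HOX UMIs differed between the cell types, in stroma through Hoxc8. Cluster C made up 78.4% (77.1 to 79.7) of HOX UMIs in WT stroma and 74.0% (72.3 to 75.6) in CKO stroma. Hoxc8 alone gave 2290 of the 2902 cluster C UMIs in WT stroma and 1412 of the 2052 in CKO stroma. Stroma also held 686 and 660 cluster B UMIs. Cluster B stood at 118 and 94.3 CPM in stroma, and at 218 and 183 CPM in endothelium. Cluster B made up 84.4% (79.8 to 88.3) of HOX UMIs in WT endothelium and 93.1% (90.1 to 95.4) in CKO endothelium. Endothelium held 2 cluster C UMIs of 302 in WT and 0 of 392 in CKO, where a count of 0 allows a share of up to 0.937% (exact binomial). WT progenitors drew 48.1% (40.7 to 55.6) of their 185 HOX UMIs from cluster A and 47.6% (40.2 to 55.0) from cluster B. CKO progenitors drew 3.73% (1.22 to 8.49) of 134 from cluster A and 94.8% (89.5 to 97.9) from cluster B. Cluster D gave 0.595% and 0.613% in stroma and at most 3.31% in the endothelial and progenitor gates. Dividing each member's level by its summed exon length moved cluster C in WT stroma to 77.2% and cluster B in WT endothelium to 87.0%. On that scale clusters A and B gave 40.4% and 54.7% in WT progenitors, and 2.71% and 95.5% in CKO progenitors.

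**Figure D1:**
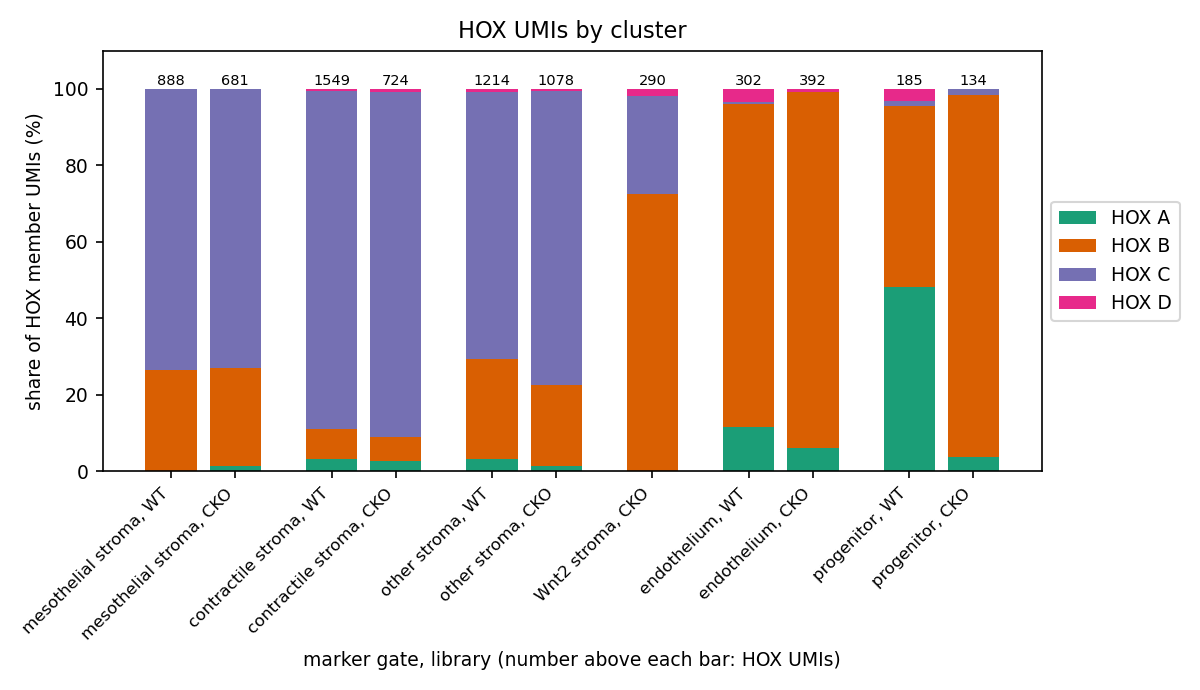
Share of HOX member UMIs (%) from each of the 4 clusters in the stromal subgates, endothelium and progenitors of each library with at least 20 cells, with the number of UMIs above each bar. Cluster C fills most of the mesothelial, contractile and other stromal bars, cluster B the endothelial bars and the CKO bar of the Wnt2 gate, and cluster A stands at 48.1% in WT progenitors and 3.73% in CKO progenitors.

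Within stroma, Hoxc8, a central gene of cluster C, was the most abundant member. It lies at chr15:102990607-102994111 on the plus strand (GENCODE M21, GRCm38) and had 2290 UMIs in WT, 395 CPM (379 to 412), and 1412 in CKO, 202 CPM (191 to 212). Levels of different genes are compared here per kilobase of summed exons, though a 5′ assay reads transcript starts and the scale is only approximate. On that scale the levels of the 10 members with most stromal UMIs were, in WT, 140 for Hoxc8, 19.3 for Hoxc6, 16.1 for Hoxc9, 12.3 for Hoxb2, 10.1 for Hoxb6, 8.94 for Hoxb7, 6.25 for Hoxb4, 4.52 for Hoxb8, 3.07 for Hoxc10 and 2.68 for Hoxc5. In CKO stroma they were 71.2 for Hoxc8, 14.6 for Hoxc9, 11.1 for Hoxc10, 10.7 for Hoxb2, 10.2 for both Hoxc6 and Hoxb6, 4.72 for Hoxb7, 4.40 for Hoxb4, 4.01 for Hoxb8 and 2.03 for Hoxc5. The first place was the same in both libraries, and Hoxc10, the most 5′ of the 6 cluster C members, was the ninth in WT and the third in CKO. The levels per kilobase of neighbours such as Hoxc6, Hoxb2 and Hoxb6 in CKO stroma lay within their counting error.

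The profile along the clusters was uneven in both cell types. In stroma the cluster C level climbed from Hoxc4 (5.87 and 3.86 CPM) and Hoxc5 (8.28 and 6.28 CPM) over Hoxc6 (46.4 and 24.6 CPM) to Hoxc8, and was lower again at Hoxc9 (39.2 and 35.4 CPM). The Hoxc5 gene model in GENCODE M21 spans Hoxc6, Hoxc8, Hoxc9 and Hoxc10 on the same strand, so the split of reads between them is uncertain. Along cluster B, Hoxb1 (1.55 and 0.143 CPM), Hoxb3 (3.11 and 2.14 CPM) and Hoxb9 (0.690 and 0.857 CPM) were low in stroma, while their neighbours Hoxb2 (43.0 and 37.3 CPM) and Hoxb4 (16 and 11.3 CPM) were not. Endothelium had the same gap, with Hoxb3 at 6.82 and 2.51 CPM between Hoxb2 at 39.2 and 46.2 CPM and Hoxb4 at 45.2 and 33.2 CPM. Hoxb3 is overlapped by the antisense gene Hoxb3os, which had 31 and 30 UMIs in stroma, and the sources used here do not say whether reads were counted by strand.

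**Figure D2:**
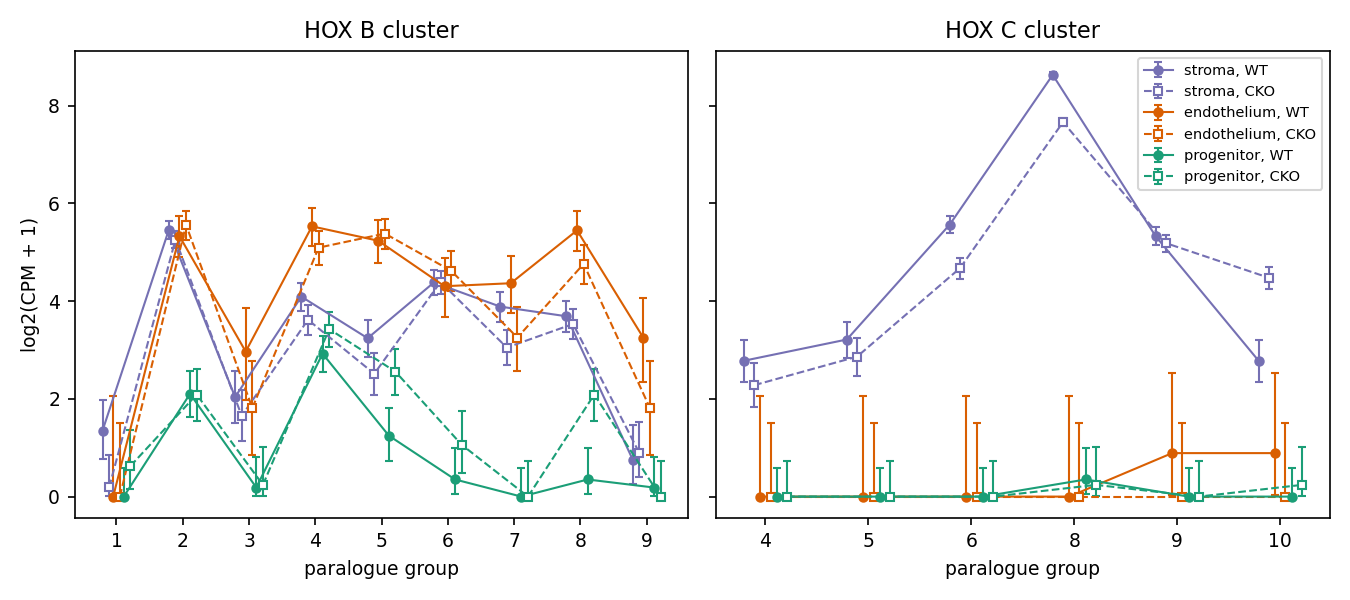
Levels along clusters B (left) and C (right) as log2(CPM + 1) by paralogue group, for stroma, endothelium and progenitors in WT (filled circles, solid lines) and CKO (open squares, dashed lines), with 95% Poisson intervals. Stroma alone has a raised cluster C profile, with its peak at group 8, and the endothelial cluster B profile dips at groups 3 and 7 between higher levels at groups 2, 4, 5 and 8.

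Stroma and endothelium were compared within each library. In both libraries 15 members could be compared (at least 20 UMIs in the pair of gates), and the 6 members of cluster C were at least 2-fold higher in stroma in both. Endothelium held 0 or 1 UMI of each of them, so they reached the count through stroma alone and had to differ. Over all genes 11.3% of 10075 were higher in both, and nothing is read from that share here. Hoxc8 had 0 UMIs in endothelium, so against a floor of 3 UMIs it was at least 154-fold higher in WT stroma and at least 134-fold higher in CKO stroma. Endothelium nevertheless held 101 and 265 UMIs of the 12 stromal marker genes, and at the ratio of Hoxc8 to those markers seen in stroma this would correspond to 3.94 and 4.58 Hoxc8 UMIs. Hoxc6 was at least 18.1-fold and 16.3-fold higher, and Hoxc9 had 227 UMIs in WT stroma against 1 in endothelium (ratio 45.9, 8.16 to 1822).

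In the other direction 3 members were at least 2-fold lower in stroma than in endothelium in both libraries, against 8.13% of genes, and all 3 belong to cluster B. Hoxb5 stood at 8.46 against 36.7 CPM in WT (ratio 0.231, 0.150 to 0.356) and at 4.71 against 40.7 CPM in CKO (0.116, 0.0748 to 0.176). Hoxb4 stood at 16 against 45.2 CPM (0.355, 0.251 to 0.507) and at 11.3 against 33.2 CPM (0.340, 0.242 to 0.479). Hoxb8 stood at 11.9 against 42.7 CPM (0.279, 0.191 to 0.410) and at 10.6 against 26.1 CPM (0.404, 0.280 to 0.588). Hoxb2 and Hoxb6 had ratios nearer to 1, with stroma over endothelium ratios of 1.09 (0.797 to 1.53) and 0.806 (0.633 to 1.03) for Hoxb2 and of 1.06 (0.666 to 1.75) and 0.847 (0.604 to 1.20) for Hoxb6. In single libraries 12.8% of genes in WT and 12.7% in CKO were at least 2-fold lower in stroma. The members that were so in 1 library alone were, in WT, Hoxa7 (11 UMIs in stroma, 12 in endothelium; 0.185, 0.0741 to 0.459), Hoxa9 (16 and 14; 0.231, 0.106 to 0.511) and Hoxb3 (18 and 8; 0.455, 0.188 to 1.21) and, in CKO, Hoxa5 (5 and 17; 0.0836, 0.0241 to 0.236). Whether the libraries differ in this was not tested.

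The stromal subgates differed in their HOX members. In WT, cluster C stood at 631 CPM in contractile and 414 CPM in mesothelial cells, and cluster B at 56.1 and 148 CPM. In CKO these levels were 479 and 293 CPM for cluster C and 34.5 and 103 CPM for cluster B. Between the contractile and mesothelial gates 8 members could be compared in both libraries. In both, 2 were at least 2-fold higher in contractile cells, against 1.72% of 8018 genes, and 3 at least 2-fold lower, against 1.37%. The 2 higher members were the 5′ genes Hoxc9 and Hoxc10 of cluster C, and the 3 lower ones were all of cluster B. Position and cluster cannot be told apart in these members. Hoxc10 had 27 UMIs in WT contractile cells (12.4 CPM) and 1 in WT mesothelial cells (0.635 CPM), a ratio of 19.6 (3.23 to 801). In CKO it had 90 UMIs (66.0 CPM) against 1 (0.589 CPM), a ratio of 112 (19.6 to 4477). Hoxc9 stood at 58.4 against 24.1 CPM in WT (2.42, 1.67 to 3.58) and at 68.9 against 24.7 CPM in CKO (2.79, 1.92 to 4.11). Hoxc10 reached 20 UMIs through contractile cells alone, so its call was fixed by the count minimum. The 3 lower members were Hoxb2 (24.4 against 52.7 CPM in WT, 11.0 against 57.1 in CKO), Hoxb4 (6.44 against 19.0, and 2.93 against 9.42) and Hoxb6 (5.52 against 29.2, and 8.80 against 18.8). Hoxb6 had 12 UMIs in the contractile cells of each library and reached 20 through mesothelial cells. Hoxb4 in both libraries and Hoxb2 in CKO also had under 20 UMIs in contractile cells and reached 20 through mesothelial cells. Of the called members only Hoxc9 was clear of this in both libraries, so the counts are a description.

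Other 5′ members had too few UMIs to compare in both libraries. Hoxa10 had 22 UMIs in WT contractile cells and 0 in WT mesothelial cells, but in CKO 2 of its 9 stromal UMIs lay in contractile cells and 7 in other stroma. Hoxa9 had 12 UMIs in contractile and 0 in mesothelial cells of each library. Hoxa11 had 8 UMIs in WT and 5 in CKO contractile cells, and 0 in the mesothelial cells of both. Paralogue groups 9 to 13 gave 12.7% (11.1 to 14.5) of HOX UMIs in WT contractile cells against 4.39% (3.14 to 5.96) in WT mesothelial cells. In CKO these shares were 28.3% (25.1 to 31.7) and 6.46% (4.73 to 8.58).

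The Wnt2 gate held 50 CKO cells and 4 WT cells. In its CKO cells cluster B gave 72.4% (66.9 to 77.5) of 290 HOX UMIs and cluster C 25.9% (20.9 to 31.3). In its 4 WT cells the order was the other way, with 28.6% (16.6 to 43.3) of 49 HOX UMIs from cluster B and 65.3% (50.4 to 78.3) from cluster C. Cluster A had no UMI in either. The values that follow are of the CKO cells. Hoxc8 stood at 43.0 CPM, against 296 in CKO contractile cells (ratio 0.145, 0.106 to 0.195) and 236 in CKO mesothelial cells (0.182, 0.132 to 0.245). A single cell held 55.1% of the 49 Hoxc8 UMIs, and 7 of the 50 cells had one. Hoxc10 had 0 UMIs there against 90 in contractile cells. Against contractile cells Hoxb2 (63.1 against 11.0 CPM; 5.74, 3.26 to 10.8), Hoxb4 (23.7 against 2.93; 8.07, 2.81 to 31.7), Hoxb6, Hoxb7 and Hoxb8 were each at least 2-fold higher, where 9.92% of 7882 genes were higher and 6.55% lower. These 5 had from 4 to 15 UMIs in contractile cells and reached 20 through the Wnt2 gate, so the count is a description. Against mesothelial cells Hoxb4, Hoxb5, Hoxb6, Hoxb7 and Hoxb8 were at least 2-fold higher and Hoxc6, Hoxc8 and Hoxc9 at least 2-fold lower, where 5.75% of 8177 genes were higher and 4.89% lower. Hoxb4, Hoxb5, Hoxb7 and Hoxb8 had under 20 UMIs in mesothelial cells, and Hoxc6 and Hoxc9 had under 20 in the Wnt2 gate. They reached 20 only with the gate where they were higher, so these counts are a description too. The 4 WT cells were not compared.

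Cell by cell, Hoxc8 was near universal in WT stroma. At least 1 UMI was seen in 228 of 249 WT cells, 91.6% (87.4 to 94.7), and in 162 of 285 CKO cells, 56.8% (50.9 to 62.7). After thinning each cell to 10000 UMIs the shares were 86.4% of 228 cells and 52.7% of 264 cells. The background in cells that should lack the gene was 0 of 62 and 0 of 66 endothelial cells and 1 of 172 and 7 of 255 erythroid cells. Median depth was 22599 and 21994 UMIs in stroma, 15463 and 28924 in endothelium and 34142 and 35270 in erythroid cells. Over the stromal cells that had a Hoxc8 UMI, its level was 426 CPM in WT and 302 CPM in CKO. The lower quartile, median and upper quartile of single-cell Hoxc8 levels were 202, 374 and 546 CPM in WT and 0, 87.2 and 282 CPM in CKO.

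In CKO stroma Hoxc6, Hoxc9 and Hoxc10 were seen less often in cells without Hoxc8, and Hoxb2 and Hoxb6 more often. Of the 123 CKO cells without Hoxc8, 43 were of the Wnt2 gate, where cluster B made up most HOX UMIs, and the part of that gate was not tested. Hoxc6 was seen in 85 of 162 cells with Hoxc8 (52.5%) and in 12 of 123 without (9.76%). Hoxc9 was seen in 94 of the 162 (58.0%) and in 3 of the 123 (2.44%). Hoxc10 was seen in 40 and 2 of those cells. Hoxb2 was seen in 47 of the 162 (29.0%) and in 62 of the 123 (50.4%), and Hoxb6 in 36 (22.2%) and 50 (40.7%). In CKO mesothelial cells Hoxb2 was seen in 16 of 43 cells with Hoxc8 and 12 of 18 without, and Hoxb6 in 10 and 6. In CKO contractile cells Hoxb2 was seen in 9 of 38 with and 2 of 5 without. Hoxb6 went the other way there, in 10 and 0. WT stroma had 21 cells without Hoxc8, of which 4 had Hoxc6, 4 had Hoxc9 and 12 had Hoxb2. In WT stroma Hoxc10 went the other way, seen in 3 of the 21 (14.3%) and in 19 of the 228 with Hoxc8 (8.33%). The highest paralogue group seen in a cell was group 8 in 126 WT and 89 CKO stromal cells, group 9 in 92 and 69, group 10 in 19 and 44, group 6 in 3 and 29, and none in 0 and 12. These counts are not thinned, and deeper cells show more members.

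**Figure D3:**
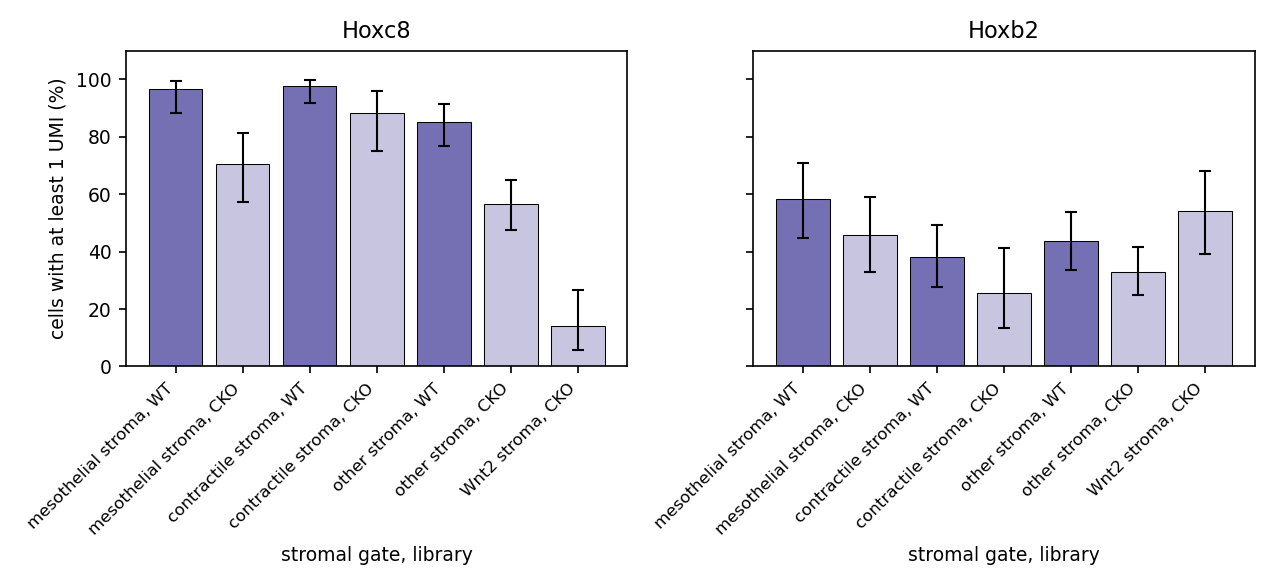
Share of cells (%) with at least 1 UMI of Hoxc8 (left) and Hoxb2 (right) in each stromal subgate and library with at least 20 cells, with exact binomial 95% intervals. Hoxc8 is seen in 96.7% and 70.5% of mesothelial cells, 97.6% and 88.4% of contractile cells, 85.1% and 56.5% of other stromal cells (WT, then CKO) and 14.0% of CKO cells of the Wnt2 gate, where Hoxb2 is seen in 54.0%.

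The genotypes were then compared within the stromal gate. The summed HOX level in CKO was 0.620 (0.590 to 0.652) of that in WT, and 0.799 (0.741 to 0.861) without Hoxc8. By cluster the CKO over WT ratio was 0.405 (0.275 to 0.586) for A, 0.796 (0.714 to 0.887) for B, 0.585 (0.553 to 0.619) for C and 0.640 (0.319 to 1.26) for D. Of the 30 members 17 had at least 20 UMIs over both libraries. Of these 1 was at least 2-fold higher in CKO, against 6.19% of 11146 genes, and 2 at least 2-fold lower, against 3.62%. The median log2 ratio of the 17 was -0.54, beside -0.01 over all genes compared, and 2 of the 17 ratios lay above 1.

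Hoxc10 (chr15:102966796-102971893, plus strand) was the member that was higher. It had 34 UMIs in WT stroma, 5.87 CPM (4.06 to 8.2), and 149 in CKO stroma, 21.3 CPM (18.0 to 25), a ratio of 3.63 (2.49 to 5.43). The difference was in contractile cells (27 against 90 UMIs; 5.31, 3.42 to 8.5) and in other stroma (6 against 58; 6.72, 2.91 to 19.1), with 1 UMI each in mesothelial cells. In the contractile gate 17.9% (10.4 to 27.7) of the cells had a UMI in WT and 51.2% (35.5 to 66.7) in CKO, and 15.9% and 30.2% after thinning. No one cell held more than 14.7% of the Hoxc10 UMIs of stroma. Over all stroma the Hoxc10 log2 ratio was 1.16 after thinning, against 1.86 before it. Split by embryo sex, Hoxc10 in stroma stood at 5.57 and 29.5 CPM in cells with Xist RNA (105 and 106 cells). In cells with Y-linked RNA (121 and 131 cells) it stood at 6.51 and 12.9 CPM, a log2 ratio of 0.99 that misses the 2-fold line. The contractile markers summed to 7587 and 4875 CPM in the contractile gate, and their part in the Hoxc10 difference was not tested.

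Hoxc8 and Hoxc6, which lie 3′ of it, were lower in CKO by just under 2-fold. The Hoxc8 ratio was 0.510 (0.477 to 0.546), and it was 0.679 (0.595 to 0.773) in mesothelial cells, 0.613 (0.545 to 0.688) in contractile cells and 0.576 (0.514 to 0.646) in other stroma. Without the cells of the Wnt2 gate the log2 ratio for stroma was -0.78 instead of -0.97, and it was -1.13 after thinning and -1.27 as a mean CPM over cells, both past 2-fold. It was -0.56 in cells with Xist RNA and -1.39 in cells with Y-linked RNA. Hoxc6 stood at 46.4 CPM (41.0 to 52.3) and 24.6 CPM (21 to 28.5), a ratio of 0.529 (0.434 to 0.643). Hoxc9, which lies between Hoxc8 and Hoxc10, stood at 39.2 CPM (34.2 to 44.6) and 35.4 CPM (31.1 to 40.1), a ratio of 0.904 (0.752 to 1.09). Paralogue groups 9 to 13 gave 8.43% (7.56 to 9.37) of stromal HOX UMIs in WT and 15.8% (14.5 to 17.2) in CKO, and 22.1% (20 to 24.4) and 32.2% (29.7 to 34.7) with Hoxc8 left out.

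Both members that were at least 2-fold lower in CKO stroma belong to cluster A, at low counts. Hoxa5 reached the count minimum through WT cells. Hoxa5 had 19 UMIs in WT and 5 in CKO (0.218, 0.0636 to 0.603), but 1 WT cell held 68.4% of the 19. Most lay in other stroma (18 and 2; 0.0772, 0.00869 to 0.323). Hoxa10 had 22 UMIs in WT, all in the contractile gate, and 9 in CKO (0.339, 0.137 to 0.765), of which 2 were in the contractile gate (0.145, 0.0165 to 0.589). Hoxa9 had 16 and 15 UMIs, a ratio of 0.776 (0.357 to 1.68). Hoxa7 (11 and 1 UMIs) and Hoxb1 (9 and 1 UMIs) were under the count needed for comparison. Hoxa5 and Hoxa7 overlap the antisense gene Hoxaas3, and Hoxa5 lies within the Hoxa3 model, so their counts are uncertain.

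Summed cluster B was lower in CKO in the mesothelial, contractile and other stromal gates alike. Its CKO over WT ratio was 0.697 (0.569 to 0.851) in mesothelial cells and 0.614 (0.429 to 0.866) in contractile cells. In other stroma it was 0.4999 (0.4198 to 0.5945), and over all stroma 0.796 (0.714 to 0.887). The intervals of these subgates overlap, and a difference between them was not tested. The members past 2-fold were not the same in each subgate. Over all stroma the ratios were 0.867 (0.726 to 1.04) for Hoxb2, 0.703 (0.514 to 0.959) for Hoxb4, 0.557 (0.347 to 0.884) for Hoxb5, 1.01 (0.782 to 1.30) for Hoxb6, 0.528 (0.364 to 0.759) for Hoxb7 and 0.888 (0.631 to 1.25) for Hoxb8. In mesothelial cells Hoxb7 (27 and 5 UMIs; 0.172, 0.0516 to 0.452), Hoxb5 (19 and 6; 0.293, 0.0957 to 0.763) and Hoxb4 (30 and 16; 0.495, 0.252 to 0.937) were past 2-fold lower, against 3.09% of 8350 genes, and 0 were higher, against 5.31%. In contractile cells Hoxb2 was (53 and 15; 0.451, 0.236 to 0.812), as was Hoxa10, against 6.33% of 8599 genes lower and 4.06% higher. In other stroma 6 members were lower, against 3.8% of 9388 genes, and 1 higher, against 6.04%. The 6 were Hoxb2 (110 and 77 UMIs; 0.487, 0.359 to 0.657), Hoxb4 (47 and 32; 0.473, 0.292 to 0.757), Hoxb5 (23 and 11; 0.332, 0.146 to 0.710), Hoxb7 (30 and 19; 0.440, 0.234 to 0.808), Hoxa5 and, with an interval that includes 1, Hoxc4 (15 and 9; 0.417, 0.161 to 1.02). The calls of Hoxb7 and Hoxb5 in mesothelial cells, Hoxa10 in contractile cells and Hoxa5 in other stroma were fixed by the count minimum. With so few CKO UMIs these members could reach it only by being lower in CKO. The counts of lower members in these subgates are therefore a description, and nothing is read from the shares beside them. The CKO stroma also held the 50 cells of the Wnt2 gate, in which cluster B stood at 184 CPM. With that gate left out 5 members passed 2-fold, Hoxb5 (log2 -1.46) and Hoxb7 (log2 -1.34) in addition.

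**Figure D4:**
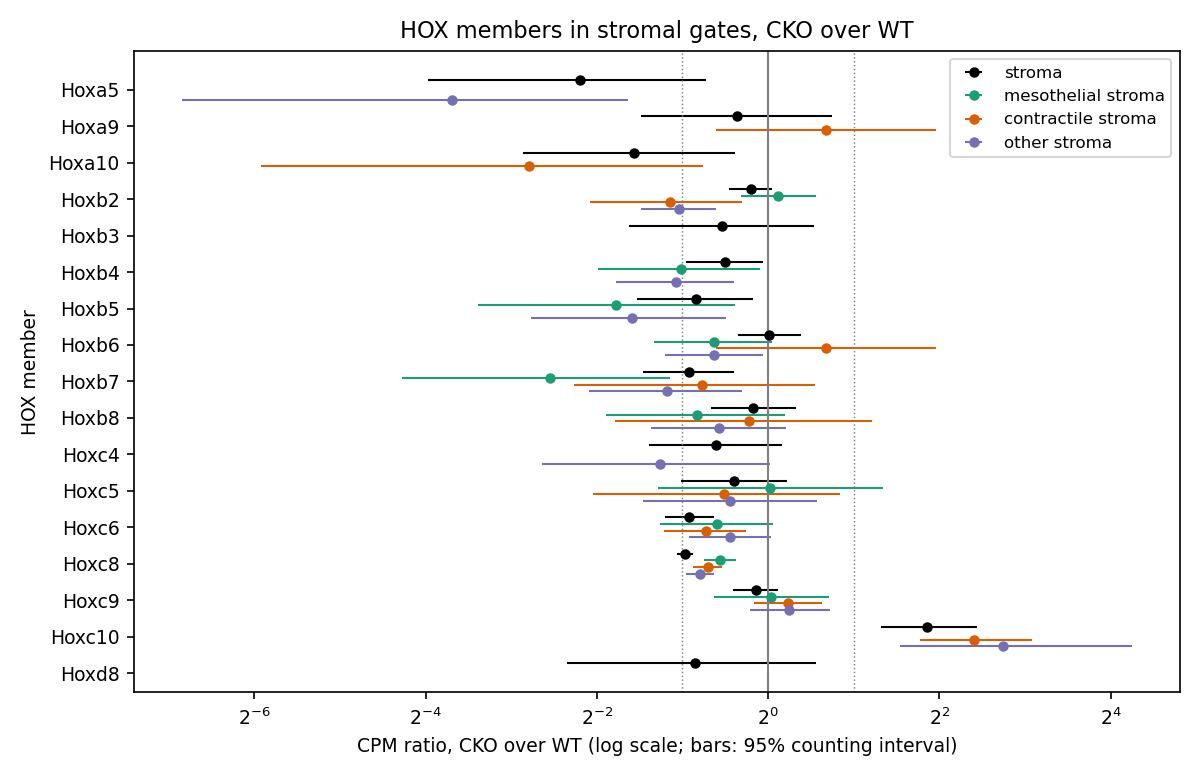
CPM ratio of CKO over WT (log axis) for the HOX members with at least 20 UMIs in stroma, for the whole stromal gate and 3 of its subgates, with 95% counting intervals. The solid line is equality and the dotted lines are 2-fold; Hoxc10 lies to the right at 3.63 and Hoxc8 to the left at 0.510, and most cluster B points of the subgates lie left of equality.

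In endothelium 8 members had at least 20 UMIs. Of these 1 was at least 2-fold higher in CKO, against 5.17% of 8436 genes, and 2 at least 2-fold lower, against 6.5%. Hoxa5 had 3 UMIs in WT and 17 in CKO, a ratio of 3.34 whose interval (0.966 to 17.8) includes 1. Hoxa9 had 14 and 6 UMIs (0.252, 0.0795 to 0.699), with 57.1% of the WT UMIs in 1 cell. Hoxa5 and Hoxa9 each only just reached 20 UMIs, so their calls were fixed by that minimum. Hoxb7 had 23 and 17 UMIs (0.435, 0.218 to 0.852). Hoxa7, under the count for comparison, had 12 UMIs in WT and 0 in CKO. The main cluster B members were within 2-fold over the whole gate: Hoxb2 stood at 39.2 CPM (28.7 to 52.3) and 46.2 CPM (37.3 to 56.7), Hoxb4 at 45.2 CPM (33.9 to 59.1) and 33.2 CPM (25.6 to 42.2), Hoxb5 at 36.7 CPM (26.5 to 49.4) and 40.7 CPM (32.3 to 50.6), Hoxb6 at 18.8 CPM (11.8 to 28.4) and 23.6 CPM (17.4 to 31.4), and Hoxb8 at 42.7 CPM (31.7 to 56.2) and 26.1 CPM (19.5 to 34.3). The CKO endothelial gate held more cells with blood progenitor markers: 37 of 66 showed at least 3, against 13 of 62 in WT, and the 11 progenitor markers summed to 562 and 884 CPM, none at 0. Without those cells (49 and 29 left) Hoxb7 alone passed 2-fold, at a log2 ratio of -1.21. The split by embryo sex moved several members. In cells with Xist RNA (27 and 30) the log2 ratio was -0.16 for Hoxb7, 1.57 for Hoxb6 and 0.31 for Hoxb8. In cells with Y-linked RNA (29 in CKO and 19 in WT, under the 20 otherwise asked) Hoxb2 stood at 45.2 and 22.1 CPM (log2 -1.03) and Hoxb8 at 72.3 and 27.0 CPM (log2 -1.42). After thinning the log2 ratio was -1.01 for Hoxb4 and -1.46 for Hoxb8.

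Blood progenitors carried far less HOX RNA than endothelium. In both libraries 5 members could be compared between the 2 gates, and all 5 were at least 2-fold lower in progenitors, against 9.96% of 9449 genes. They were Hoxb2 (ratios of 0.0840 and 0.0704), Hoxb4 (0.146 and 0.294), Hoxb5 (0.0375 and 0.120), Hoxb6 (0.0146 and 0.0459) and Hoxb8 (0.00644 and 0.124), WT first. Hoxb6 (2 and 6 UMIs in progenitors) and Hoxb8 (2 and 18) reached 20 UMIs through endothelium alone. Hoxb5 in WT and Hoxb2 in CKO also had under 20 UMIs in progenitors. Of the 5 only Hoxb4 was clear of this in both libraries, so the count is a description. In WT, Hoxa9 was not 2-fold lower in progenitors: it stood at 8.11 CPM in progenitors and 11.9 CPM in endothelium (0.679, 0.374 to 1.32). Hoxb4 had a UMI in 40 of 179 progenitors in WT and in 28 of 132 in CKO, and 117 and 92 progenitors had no HOX UMI at all.

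Between genotypes, cluster A was lower and cluster B higher in CKO progenitors. Cluster A had 89 UMIs in WT and 5 in CKO (0.0739, 0.0234 to 0.179), and cluster B had 88 and 127 (1.90, 1.44 to 2.52), so that the sums were near equal (0.953, 0.757 to 1.20). Of 5 members with at least 20 UMIs, 1 was at least 2-fold lower in CKO, against 4.11% of 10367 genes, and 2 at least 2-fold higher, against 7.77%. Hoxa9 reached that count through WT cells and Hoxb8 through CKO cells, so these 2 calls were fixed by the count minimum. Hoxa9 had 59 UMIs in WT, 8.11 CPM, and 4 in CKO, 0.723 CPM (ratio 0.0892, 0.0235 to 0.241). Its WT UMIs came from 6.70% of cells, and 1 cell held 37.3% of them. It was lower in cells of both sexes, at log2 ratios of -3.39 with Xist RNA and -5.10 with Y-linked RNA. The smaller cluster A members pointed the same way, with Hoxa5 at 13 and 0 UMIs and Hoxa7 at 14 and 0.

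Hoxb8 had 2 UMIs in WT progenitors and 18 in CKO progenitors, 0.275 and 3.25 CPM (ratio 11.8, 2.83 to 105), and 1 CKO cell held 44.4% of the 18. It only just reached the count minimum, through CKO cells, so its call was fixed by that minimum. Hoxb5 had 10 and 27 UMIs, 1.37 CPM (0.659 to 2.53) and 4.88 CPM (3.22 to 7.10), a ratio of 3.55 (1.67 to 8.22). Hoxb4 stood at 6.60 CPM (4.86 to 8.74) and 9.76 CPM (7.33 to 12.7), a ratio of 1.48 (0.984 to 2.23) that ran from a log2 of -0.20 after thinning to 1.31 in cells with Xist RNA. Hoxb2 stood at 3.30 and 3.25 CPM (0.986, 0.504 to 1.90). The progenitor gates also differed in endothelial RNA: 62 of 179 WT and 90 of 132 CKO cells showed at least 3 endothelial markers, and the 12 markers summed to 331 and 545 CPM, none at 0. Hoxb5 and Hoxb8 stand 8.34-fold and 8.03-fold higher in CKO endothelium than in CKO progenitors. The part of these markers in the Hoxb5 and Hoxb8 values was not tested. Without cells whose leading gate was close to the next, Hoxa9 (log2 -3.35) and Hoxb5 (log2 1.12) still passed 2-fold and Hoxb8 no longer had the counts. With cells thinned to 10000 UMIs no member had the counts and passed.

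The remaining blood and yolk sac cells held little HOX RNA. Erythroid cells held 5 and 70 HOX UMIs, so a member could reach the count for a comparison with stroma through stroma alone, and no such comparison is given. Hoxc8 was the 1 member with at least 20 UMIs over both erythroid gates (1 and 45; against 7.52% of 9082 genes higher in CKO and 5.18% lower), and 39 of the 45 lay in the single cell named above. CKO megakaryocyte cells held 23 HOX UMIs, 11.5 CPM (7.29 to 17.3), of which 12 were Hoxb4 and 6 Hoxb2. The 14 WT megakaryocyte cells held 4. Macrophages held 5 and 1 HOX UMIs, all of cluster B. Visceral endoderm, in WT, held 26 HOX UMIs, 31.5 CPM (20.6 to 46.2), 73.1% of them from cluster B.

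Cluster D and the rest of cluster A were near the limit of detection. In stroma Hoxd8 had 12 and 8 UMIs (0.552, 0.196 to 1.47), Hoxd4 4 and 3, Hoxd1 4 and 2, Hoxd9 1 and 4 and Hoxd3 1 and 0. Hoxd3 and Hoxd4 overlap on the same strand, so their reads cannot be told apart with certainty. Hoxa3 had 6 and 5 UMIs, Hoxa4 8 and 1, Hoxa11 8 and 6, Hoxa2 0 and 1, and Hoxa13 0 and 1. Hoxb9 had 4 and 6 UMIs in stroma and 10 and 5 in endothelium.

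The genes that work with the HOX proteins or control the clusters were compared in the same way. Of 8 cofactor genes compared 7 had the counts in stroma, and none passed 2-fold: Meis2 stood at 89.7 and 69.4 CPM (0.773, 0.682 to 0.877), Pbx2 at 56.9 and 44.6 CPM (0.782, 0.668 to 0.916), Pbx3 at 22.8 and 21.3 CPM (0.934, 0.734 to 1.19) and Meis1 at 18.1 and 17.4 CPM (0.962, 0.735 to 1.26). Of 14 upstream regulators 11 had the counts and none passed, with Gmnn at 0.750 (0.687 to 0.819), Psip1 at 0.569 (0.519 to 0.623), Ezh2 at 0.780 (0.684 to 0.890) and Rnf2 at 1.13 (0.955 to 1.34). The activator Cdx2 had 1 and 0 UMIs in stroma. Of 11 non-coding genes in the clusters 3 had the counts and none passed in stroma: Hotairm1 stood at 9.66 and 17.0 CPM (1.76, 1.27 to 2.46), Hoxb3os at 0.801 (0.468 to 1.37) and Hoxb5os at 0.504 (0.240 to 1.02), and Haglr had 2 and 8 UMIs. Of 8 limb, allantois and lateral plate regulators 6 had the counts and none passed, with Hand1 at 0.911, Tbx20 at 0.918, Foxf1 at 0.658 and Hand2 at 0.630. Hand1, Foxf1 and Tbx20 are also markers of the stromal gate. In mesothelial cells 2 of 7 cofactors were at least 2-fold higher in CKO, against 5.31% of genes. In contractile cells 2 of 7 cofactors and 1 of 11 upstream regulators were lower, against 6.33%. So was 1 of 5 limb, allantois and lateral plate regulators. In other stroma 1 of 11 upstream regulators and 1 of 3 non-coding genes were lower, against 3.8%. No other gene of these lists passed in those subgates.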

How the data were processed

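The authors deposited 1 matrix of UMI counts per library, with gene and barcode lists; per the submitters' processing notes Cell Ranger, Seurat and GRCm38 were used, and the sources used here give no settings. Deposited barcodes numbered 815 (WT) and 865 (CKO), with 24538853 and 27314411 UMIs, from 6054 to 114332 and from 6328 to 96471 per barcode, and 1 barcode was in both libraries. Barcodes under 500 detected genes or over 10% mitochondrial counts were dropped, and Scrublet in scanpy 1.11.5 (expected rate 1%) removed 3 and 6 as doublets.

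A marker counted as seen from 2 UMIs. A cell took the class with the largest share of its markers seen, with at least 3 seen and no tie, from 12 marker lists. Stroma was split at 3 of 6 mesothelial, 4 of 10 contractile or all 3 Wnt2 markers. The median stromal cell showed 9 of 12 stromal markers in each library. UMIs were summed per gate and divided by the gate's total (CPM). Intervals are exact Poisson for levels, exact binomial for shares and conditional binomial for ratios, at 95%. They cover counting error only, since cells of a library are not replicates and reads share amplification. A ratio was read where both gates had at least 20 cells in each library and the gene at least 20 UMIs over both sides, and it was called at 2-fold, with a side at 0 UMIs held at a floor of 3. The same rule was run on all genes for the background share, and on simulated counts with known changes.

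All 30 members are accounted for. Full values are given for those with most UMIs in each gate (up to 10 in stroma, 6 elsewhere) and for those past 2-fold with an interval that leaves out 1, and of the related lists for the 4 genes with most UMIs in stroma. Some genes are not reported here. The members and lists were chosen with earlier results of these data known. Of 33456 gene identifiers 97.6% were in GENCODE M21, which gave positions, exon lengths and overlaps. Upstream windows came from RefSeq. Python 3.11.15, numpy 2.4.6, scipy 1.17.1 and pandas 2.3.3 were used. Alternatives were the minimum count, the scaling, the gate and mitochondrial limits, doublets kept, thinning to 10000 UMIs and splits by embryo sex. The alternatives without close gate calls (a lead under 0.1 in marker share), without the Wnt2 gate and without mixed cells were chosen after seeing the data.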

Additional observations from a re-analysis of the deposited data

Results flagged for a closer look

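Hoxb5 had CKO over WT ratios on opposite sides of equality in different gates, at low counts. Its CKO over WT log2 ratio was 1.83 in progenitors, -1.77 in mesothelial cells and -1.59 in other stroma, each with an interval that leaves out equality. The mesothelial call was fixed by the count minimum. The progenitor value fell to 1.12 without cells whose leading gate was close to the next, and the progenitor gates also differed in endothelial RNA. With 1 library per genotype the difference between these gates was not tested.

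HOX RNA was also seen outside the named cell types. The 30 members summed to 1071 CPM in the 3 WT cells with markers of embryonic neural and paraxial tissue, to 492 CPM in the 32 ungated WT cells and to 262.8 CPM in the 9 ungated CKO cells, none of which entered a comparison.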

How the results depend on the processing

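Of 30 member ratios, 0 of those past 2-fold changed sign, but 12 of the others turned in direction under at least 1 alternative. In endothelium Hoxb2 (log2 0.24) was -1.03 in Y-positive cells, Hoxb6 (0.33) was 1.57 in Xist-positive and -0.42 in Y-positive cells, and Hoxb8 (-0.71) ran from -1.46 after thinning to 0.31 in Xist-positive cells. Hoxb4 in progenitors (0.57) ran from -0.20 after thinning to 1.31 in Xist-positive cells, and Hoxc4 in stroma (-0.61) from -1.04 in Xist-positive to 0.31 in Y-positive cells. Hoxa10 in stroma was -0.91 as a mean over cells and Hoxa5 in endothelium 0.54 with doublets kept, both within 2-fold. Over all alternatives 305 values stayed within the main counting interval and 32 moved outside it. The count of 3 members past 2-fold in stroma was 1 with at least 50 UMIs, 8 with no minimum count and 5 without the Wnt2 gate. The count of 3 in endothelium was 0 with at least 50 UMIs, 9 with no minimum, 1 in Xist-positive cells and 1 without cells showing 3 progenitor markers. The count of 3 in progenitors was 1 with at least 50 UMIs, 6 with no minimum and 0 after thinning. The 6 members higher in stroma than in endothelium numbered 3 with at least 50 UMIs, 3 after thinning, 3 in Xist-positive and 3 in Y-positive cells. The count of 5 members that differed between contractile and mesothelial cells was 2 with at least 50 UMIs, 2 with 1 more marker per gate, 2 with markers seen from 1 UMI, 2 after thinning, 3 in Xist-positive and 1 in Y-positive cells. A higher minimum, thinning and the splits leave fewer UMIs to compare. The summed stromal ratio of 0.620 was 0.547 as a mean over cells, 0.569 after thinning, 0.742 in Xist-positive cells, 0.508 in Y-positive cells and 0.661 without the Wnt2 gate, and the cause was not tested. The share of paralogue groups 9 to 13 was 9.5% in Xist-positive WT stroma and 17.3% in CKO stroma without the Wnt2 gate. No paired analysis was possible because each genotype has 1 library. At these depths a member under 20 UMIs could not be compared.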
